A study of Mus musculus with 6 samples.

Results

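The mouse lysyl oxidase family has 5 genes, *Lox*, *Loxl1*, *Loxl2*, *Loxl3* and *Loxl4*, which were picked out by symbol through their NCBI gene numbers (16948, 16949, 94352, 16950 and 67573) from the 17441 genes listed in any of the 6 libraries. All 5 were listed in every library. RNA of heart tissue below the coronary ligature was sequenced 3 days after surgery in 12-week-old male mice. The 3 groups were sham-operated WT mice (WT sham), WT mice with myocardial infarction from left coronary artery ligation (WT MI), and *Card9* knockout mice with that infarction (*Card9* KO MI), with 2 libraries a group. No sham-operated *Card9* KO hearts were analysed here, and the effects of genotype and infarction therefore cannot be told apart where *Card9* KO MI is set against WT sham. The labels do not say whether the libraries of a group came from separate animals, so p-values measure only the spread between these libraries.

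Lysyl oxidases are copper-dependent amine oxidases that carry a quinone cofactor made from their own lysine and tyrosine residues. Outside the cell they convert lysine and hydroxylysine side chains of collagen and elastin to reactive aldehydes, from which the cross-links between the fibres form. *Lox* and *Loxl1* encode the members with a propeptide that is cut off outside the cell, and *Loxl2*, *Loxl3* and *Loxl4* encode members with scavenger receptor cysteine-rich domains ahead of a similar catalytic domain. In an infarcted heart they are known for cross-linking the collagen of the scar, and they are made largely by fibroblasts and vascular cells.

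What the 5 genes share is the catalytic domain, and the stretch around its copper-binding histidines shows this most directly. In the mm9 genome with the GENCODE annotation of that build, the stretch covers 33 coding bases (11 codons), of which 4 codons encode histidine, and in all 5 genes an exon junction follows its base 23. The coding bases are printed for 4 genes below, 5′ to 3′ on the strand of the gene, with the histidine codons in capitals. They show how far the members can be told apart in this stretch:

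Loxl1: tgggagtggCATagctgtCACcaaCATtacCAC

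Loxl2: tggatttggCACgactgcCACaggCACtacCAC

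Loxl3: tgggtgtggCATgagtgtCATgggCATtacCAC

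Loxl4: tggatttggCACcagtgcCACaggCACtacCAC

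The *Loxl1* bases lie in exon 3 (chr9:58142166-58142188, minus strand) and exon 4 (chr9:58141527-58141536). Those of *Loxl2* lie in exon 10 (chr14:70082123-70082145, plus strand) and exon 11 (chr14:70088835-70088844). Those of *Loxl3* lie in exon 10 (chr6:82999989-83000011, plus strand) and exon 11 (chr6:83000110-83000119), and those of *Loxl4* in exon 11 (chr19:42674367-42674389, minus strand) and exon 12 (chr19:42673297-42673306). *Loxl2* and *Loxl4* were identical at 31 of the 33 bases and *Lox* and *Loxl1* at 32, whereas each of the other 8 pairs shared 21 to 25. Over the last 600 coding bases, the 10 pairs were 67.0% to 74.1% identical, and the longest run of identical bases between the transcripts of any 2 members was 32, between *Lox* and *Loxl1*. Fragments that fall within such a short run cannot be assigned to 1 of the pair, while the rest of the transcripts differ.

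The genes lie on separate chromosomes. *Lox* spans chr18:52675723-52689521 (minus strand), *Loxl1* chr9:58135530-58161019 (minus), *Loxl2* chr14:70008978-70095640 (plus), *Loxl3* chr6:82984167-83002556 (plus) and *Loxl4* chr19:42668472-42687303 (minus). Only *Loxl3* overlaps the exons of another annotated gene: it shares 535 exon bases with *Htra2*, a mitochondrial protease gene on the opposite strand. Whether fragments were counted by strand is not given in the sources used here, so fragments of *Loxl3* and *Htra2* in that overlap cannot be told apart. The FPKM of *Htra2* was 8.39 and 11.6 in the sham libraries, 16.3 and 15.8 in the infarcted WT libraries, and 20.1 and 19.1 in the *Card9* KO MI libraries.

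Levels are given as FPKM, the fragments per kilobase of gene scaled to the mapped fragments of the library, which the authors calculated and deposited. The deposited values hold no counts, but the steps between the lowest values put the depth at about 3013192 to 4267380 fragments a library, and 3 fragments on a transcript of 2 kb are then worth an FPKM of 0.352 to 0.498. Across genes, the paired libraries of each group had a Pearson's r of 0.984 to 0.986 on the log2 scale. The labelled tissue carried its defining markers: the 8 cardiomyocyte markers, which include *Myh6* and *Tnnt2*, summed to 47267 to 48710 FPKM in the sham libraries, 29586 to 30137 in WT MI and 24562 to 28447 under the *Card9* KO MI label. The targeted gene *Card9* (NCBI gene 332579) had an FPKM of 0.99 and 1.03 in the sham libraries, 3.39 and 5.08 in the infarcted WT libraries, and 9.85 and 6.94 in the *Card9* KO MI libraries. It was not lower under the *Card9* KO MI label than under WT MI (log2 difference 0.85, SE 0.23, adjusted p = 0.112), so every direction between these groups rests on the label. The value of a whole gene does not show which of its exons the fragments came from.

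All 5 lysyl oxidase genes were higher 3 days after infarction than after the sham operation, by 3.66-fold to 30.3-fold in mean FPKM. *Lox* moved furthest, and *Loxl1*, the most abundant member in each group, moved least in fold. The libraries labelled *Card9* KO MI had still higher levels of *Loxl2*, which was the single member called between the infarct groups, by 1.59-fold. The libraries did not overlap between the infarct groups for *Lox*, *Loxl1* and *Loxl3* either, which were 1.25-fold to 1.52-fold higher but were not called, and *Loxl4* overlapped. Of all genes tested, 30.8% had both libraries labelled *Card9* KO MI above both WT MI libraries.

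*Lox*, the founding member, had an FPKM of 1.83 and 2.09 in the sham libraries, 59.98 and 58.74 in the infarcted WT libraries, and 79.63 and 68.23 in the *Card9* KO MI libraries. Both sham libraries were close to the lower end of what is tested, at about 25.6 and 28.1 estimated fragments, and each infarct library was far above them. The mean rose from 1.96 ± 0.184 (SD, n = 2) to 59.4 ± 0.877 in WT MI, which was 30.3-fold.

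*Loxl1*, whose product works mainly on elastin, had an FPKM of 23.42 and 21.98 in the sham libraries, 82.98 and 83.21 in the infarcted WT libraries, and 106.57 and 102.53 in the *Card9* KO MI libraries. The libraries of each group lay close together and the groups did not overlap. It went from 22.7 ± 1.02 to 83.1 ± 0.163, a 3.66-fold rise.

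*Loxl2*, whose product cross-links collagen IV of basement membranes as well as fibrillar collagen, had an FPKM of 10.35 and 9.51 in the sham libraries, 47.44 and 56.14 in the infarcted WT libraries, and 85.81 and 78.96 in the *Card9* KO MI libraries. The 3 groups again formed separate steps, with sham lowest and the libraries labelled *Card9* KO MI highest. The means were 9.93 ± 0.594, 51.8 ± 6.15 and 82.4 ± 4.84, which put WT MI 5.22-fold above WT sham.

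*Loxl3*, which is needed for the palate and spine to form in mice, had an FPKM of 3.48 and 2.83 in the sham libraries, 20.1 and 26.45 in the infarcted WT libraries, and 35.66 and 35.07 in the *Card9* KO MI libraries. WT MI varied more between its libraries than the other groups did, and no group overlapped another. The means were 3.16 ± 0.46, 23.3 ± 4.49 and 35.4 ± 0.417, and WT MI stood 7.38-fold above WT sham.

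*Loxl4* was the least abundant member in each group, with an FPKM of 0.4 and 0.18 in the sham libraries, 2.83 and 2.4 in the infarcted WT libraries, and 2.79 and 2.33 in the *Card9* KO MI libraries. The sham values stand for about 4.69 and 2.03 estimated fragments, at the detection limit of 3 fragments a library, and the infarct groups overlapped each other. From the estimated fragments, rounded and pooled per group, the ratio of WT MI to WT sham was 8.54 with an exact 95% counting interval of 3.95 to 21.95, so the size of this rise is poorly fixed. *Loxl4* passed the filter on low values through the infarct libraries alone, so it could be tested only because it was higher there.

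**Figure D1:**
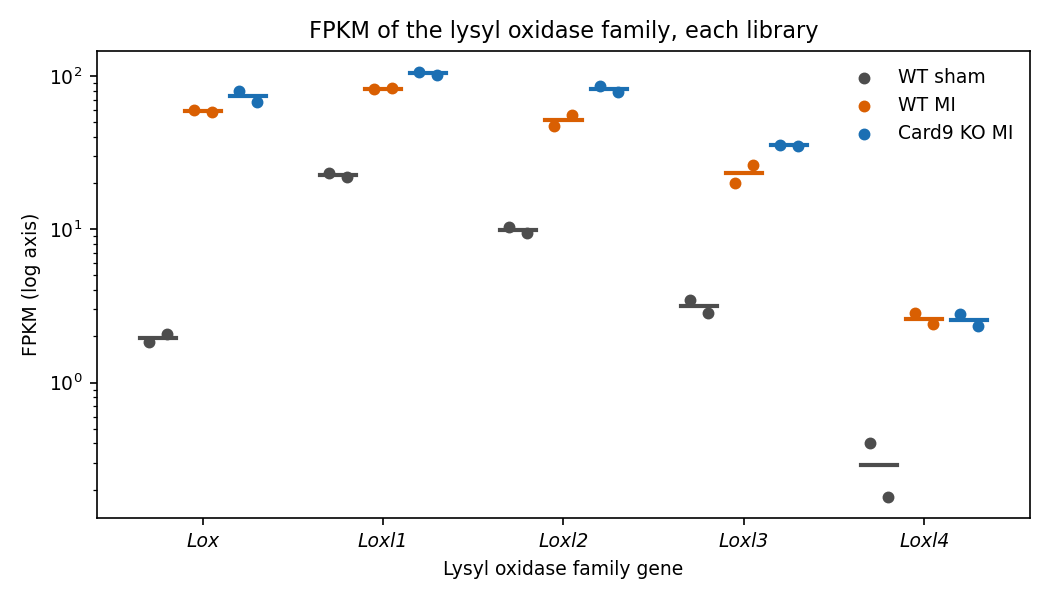
FPKM on a log axis (vertical) of each lysyl oxidase gene (horizontal) in WT sham (grey), WT MI (orange) and *Card9* KO MI (blue). Points are the 2 libraries of a group and bars their mean. Every infarct library lies above both sham libraries for all 5 genes, and *Lox* climbs from 1.96 to 59.4, past *Loxl3* and *Loxl2*.

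WT MI was set against WT sham to ask which genes respond to infarction. In limma with Benjamini-Hochberg adjustment over all 13120 genes tested, all 5 members were called higher in WT MI at an adjusted p below 0.05, and their libraries did not overlap with those of WT sham. *Loxl4* passed the filter through the infarct libraries alone, so its call is tied to the filter. Of all genes tested, 27.7% were called higher and 9.39% lower in this comparison, and 48.3% had both WT MI libraries above both WT sham libraries. On the log2(FPKM + 1) scale, which understates the change of low genes, *Lox* rose by 4.35 (95% confidence interval 4.07 to 4.63, SE 0.120, adjusted p = 1.98e-06) and ranked 15 of 13120 genes from the highest. The interval of *Lox* lay above those of the other members. *Loxl3* rose by 2.54 (SE 0.159, adjusted p = 4.79e-05, rank 150), *Loxl2* by 2.27 (SE 0.119, adjusted p = 2.51e-05, rank 226), *Loxl1* by 1.83 (SE 0.091, adjusted p = 2.35e-05, rank 441) and *Loxl4* by 1.49 (SE 0.215, adjusted p = 0.00155, rank 736). Over all tested genes the median difference was 0.19 on the deposited values, 0.0039 after upper-quartile scaling and -0.090 after quantile normalization, and the 5 members stayed called higher under each of them.

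The libraries labelled *Card9* KO MI were set against WT MI to ask what changes with the *Card9* label after infarction. The test called 1 of the 5 members higher, *Loxl2*, and none lower, where 0.816% of all genes tested were called higher and 0.587% lower. *Loxl2* differed by 0.66 on the log2(FPKM + 1) scale (95% confidence interval 0.39 to 0.94, SE 0.119, adjusted p = 0.0482). This call lay close to the threshold and did not last when any 1 of the 6 libraries was left out: the difference then ran from 0.54 without WT MI replicate 1 (adjusted p = 0.289) to 0.78 without WT MI replicate 2 (adjusted p = 0.129), and adjusted p was 0.0700 and 0.0705 without the first and the second WT sham library and 0.207 and 0.0843 without the first and the second *Card9* KO MI library.

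For the other members the same contrast gave smaller or less certain differences. *Loxl3* differed by 0.60 (0.23 to 0.96, adjusted p = 0.107), *Loxl1* by 0.33 (0.12 to 0.54, adjusted p = 0.115), *Lox* by 0.31 (0.029 to 0.59, adjusted p = 0.209) and *Loxl4* by -0.023 (-0.52 to 0.48, adjusted p = 0.970), with 95% confidence intervals in parentheses. At an unadjusted p below 0.05, 4 members were higher, all but *Loxl4*, but the share of all genes tested at that threshold was not computed. These 4 also had both libraries labelled *Card9* KO MI above both WT MI libraries, as did 30.8% of all genes tested, and the difference of all genes tested had a median of 0.045. The sign of *Loxl4* turned when WT MI replicate 1 (0.063) or *Card9* KO MI replicate 2 (0.071) was left out.

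*Card9* KO MI was also set against WT sham, and all 5 members were again called higher, where 34.8% of all genes tested were and 14.3% were called lower. Their libraries did not overlap with those of WT sham, as in 51.6% of all genes tested. The call of *Loxl4* is again tied to the filter, which it passed through the infarct libraries alone. *Lox* differed by 4.66 (37.7-fold in mean FPKM, adjusted p = 9.79e-07), *Loxl3* by 3.13 (11.2-fold, adjusted p = 1.42e-05), *Loxl2* by 2.93 (8.30-fold, adjusted p = 6.54e-06), *Loxl1* by 2.16 (4.61-fold, adjusted p = 6.84e-06) and *Loxl4* by 1.47 (8.83-fold, adjusted p = 0.00105). This comparison shares its sham libraries with the first one and its infarct libraries with the second, so the values stand side by side and are not separate evidence.

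**Figure D2:**
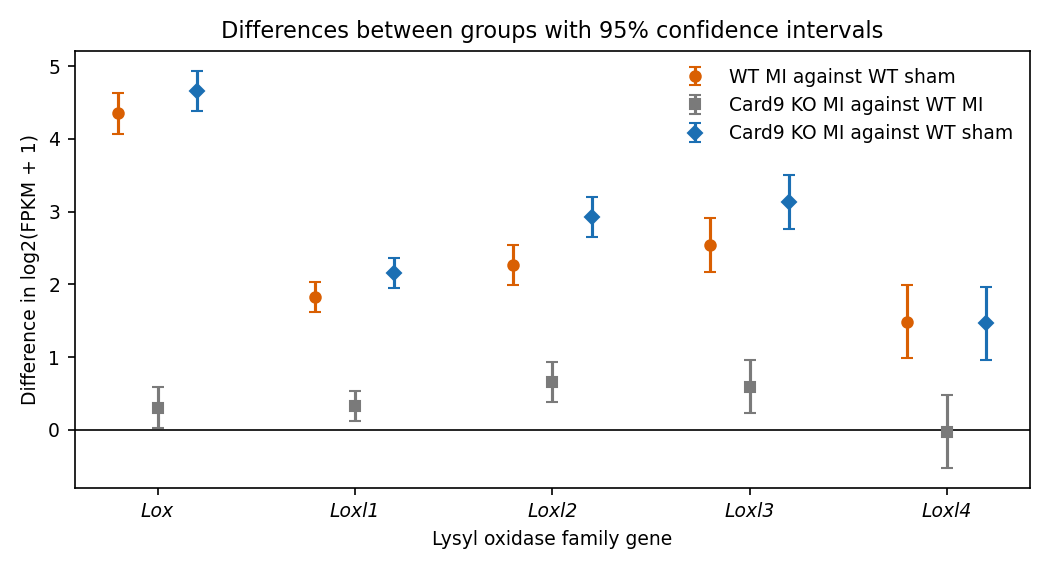
Difference in log2(FPKM + 1) between groups (vertical) for each lysyl oxidase gene (horizontal) in WT MI against WT sham (orange circles), *Card9* KO MI against WT MI (grey squares) and *Card9* KO MI against WT sham (blue diamonds). Bars are 95% confidence intervals from limma. The interval of *Lox* in WT MI against WT sham, 4.07 to 4.63, lies above those of the other members, and the grey squares lie between -0.023 and 0.66.

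The makeup of the family changed with infarction, since FPKM is relative to gene length and levels can be compared between genes. In WT sham the order was *Loxl1*, *Loxl2*, *Loxl3*, *Lox* and *Loxl4*, with the libraries of each neighbouring pair apart. In WT MI *Lox* stood second, above *Loxl2* and *Loxl3*, and the neighbours were again apart. In *Card9* KO MI *Loxl2* had a higher mean than *Lox* but their libraries overlapped, at 78.96 to 85.81 for *Loxl2* and 68.23 to 79.63 for *Lox*. The summed FPKM of the 5 genes was 39.48 and 36.59 in the sham libraries, 213.33 and 226.94 in the infarcted WT libraries, and 310.46 and 287.12 in the *Card9* KO MI libraries, so the mean sum was 5.79-fold higher in WT MI over WT sham and 1.36-fold higher in *Card9* KO MI over WT MI.

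*Lox* made up 4.64% and 5.71% of this sum in the sham libraries, 28.1% and 25.9% in the infarcted WT libraries, and 25.6% and 23.8% in the *Card9* KO MI libraries. *Loxl1* made up 59.3% and 60.1% in the sham libraries, 38.9% and 36.7% in the infarcted WT libraries, and 34.3% and 35.7% in the *Card9* KO MI libraries. For both genes the sham libraries stood apart from all infarct libraries, in opposite directions. *Loxl2* held 22.2% to 27.6% of the sum in all 6 libraries, *Loxl3* 7.73% to 12.2% and *Loxl4* 0.492% to 1.33%. Per unit of *Loxl1*, the level of *Lox* was 0.0866 ± 0.0120 (SD, n = 2) in the sham libraries, 0.714 ± 0.0120 after infarction in WT mice and 0.706 ± 0.0578 under the *Card9* KO MI label. The smallest two-sided p that an exact permutation test of such a value could reach here is 0.333, and none was run.

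**Figure D3:**
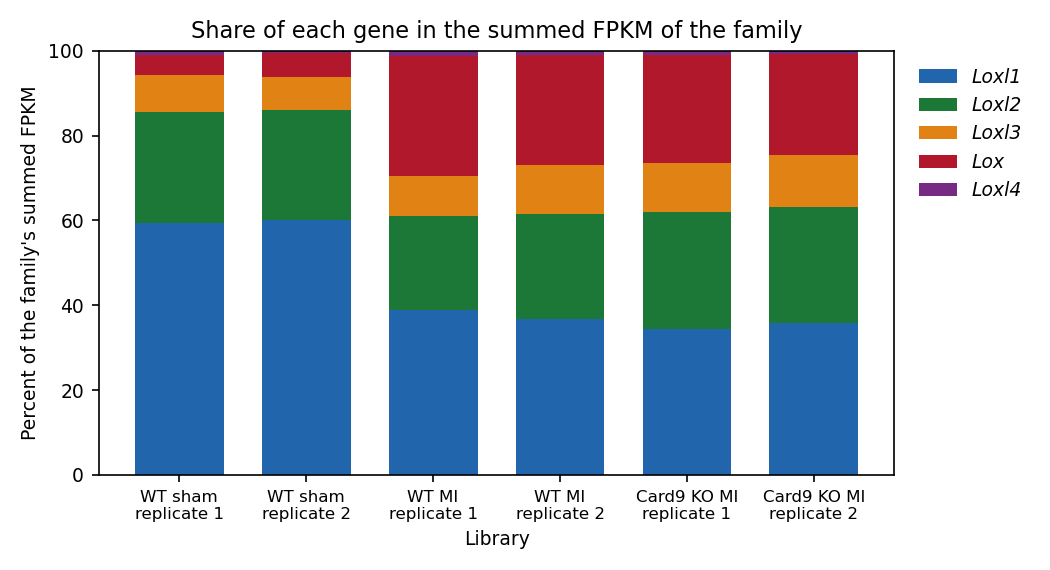
Percent of the family's summed FPKM (vertical) held by each lysyl oxidase gene (colours) in each library (horizontal). *Lox* (red) goes from 5.17% on average in the sham libraries to 27.0% in WT MI and 24.7% under the *Card9* KO MI label, while *Loxl1* (blue) goes from 59.7% to 37.8% and 35.0%.

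Fibrillar collagens are the substrate of most members. Of 11 such genes 8 were tested, and 7 were called higher in WT MI over WT sham and none lower, with a median difference of 2.59 against 0.19 over all genes tested. *Col1a1*, a chain of collagen I, had an FPKM of 45.4 and 41.05 in the sham libraries, 359.07 and 515.63 in the infarcted WT libraries, and 931.6 and 870.28 in the *Card9* KO MI libraries. It differed by 3.29 in WT MI against WT sham (SE 0.161, adjusted p = 2.35e-05) and by 1.06 in *Card9* KO MI against WT MI (adjusted p = 0.0337). In the second contrast 4 of the 8 were called higher and none lower, with a median of 0.82. Besides *Col1a1*, the genes called there were *Col1a2*, *Col5a1* and *Col5a2*, at 1.09, 0.89 and 0.74, while *Col3a1* was at 0.68 and not called (adjusted p = 0.0568), but was called with quantile normalization (0.73).

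Set against these collagens, the family did not keep pace. The 5 genes together stood at 25.3 and 25.2 FPKM per 100 FPKM of the 11 fibrillar collagens in the sham libraries, 19.9 and 15.7 in the infarcted WT libraries, and 12.7 in both *Card9* KO MI libraries. The 3 groups did not overlap. *Lox* went the other way after infarction, with 1.17 and 1.44 per 100 in the sham libraries, 5.59 and 4.07 in the infarcted WT libraries, and 3.27 and 3.01 in the *Card9* KO MI libraries. *Loxl1* went from 15.0 and 15.2 to 7.73 and 5.77 and then 4.37 and 4.52, and *Loxl2* from 6.64 and 6.56 to 4.42 and 3.89 and then 3.52 and 3.48. *Loxl4* overlapped between WT sham and WT MI, at 0.257 and 0.124 against 0.264 and 0.166. These ratios were read from the same libraries as the levels and were not tested.

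**Figure D4:**
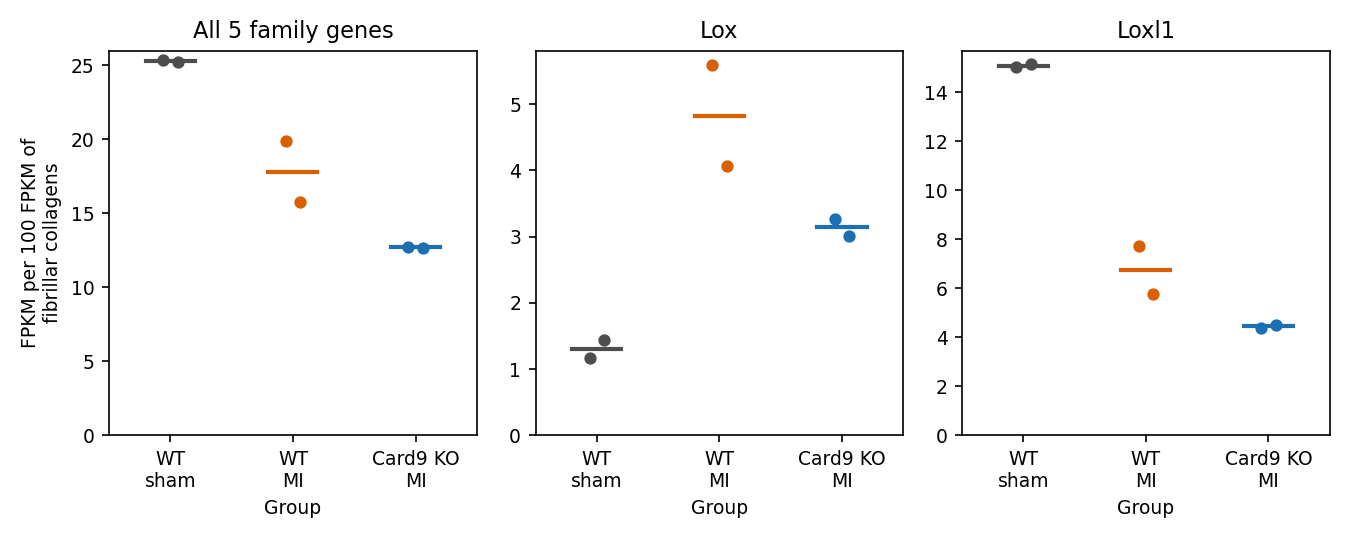
FPKM per 100 FPKM of the fibrillar collagens (vertical, from 0) for the 5 lysyl oxidase genes together, *Lox* and *Loxl1*, by group (horizontal). Points are libraries and bars the mean of 2. The family goes from 25.3 in WT sham to 17.8 after infarction in WT mice and 12.7 under the *Card9* KO MI label, while *Lox* stands at 1.31, 4.83 and 3.14.

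The genes of elastin, the other substrate, and of proteins that accompany it in elastic fibres moved less evenly. Of the 17, all tested, 10 were called higher and 2 lower in WT MI over WT sham (median 0.89), and 5 were called higher and 1 lower in *Card9* KO MI over WT MI (median 0.53, and 3 higher and 1 lower with upper-quartile scaling). Of the 17, *Fbn2* was under an FPKM of 1 in the sham and WT MI libraries and passed the filter through *Card9* KO MI alone (2.43 and 1.89). It was called in neither of these contrasts. The most abundant, *Ltbp4*, which holds latent TGF-beta in the matrix, fell by 0.71 after infarction (adjusted p = 0.000739) and was 0.56 higher in *Card9* KO MI over WT MI (adjusted p = 0.0352). *Fbln2*, *Mfap5* and *Mfap4*, which encode proteins of the microfibril scaffold and its partners, rose by 2.06, 1.87 and 1.08 after infarction. *Mfap4* was also called in *Card9* KO MI against WT MI, at 1.43 (adjusted p = 0.0115). Elastin itself, *Eln*, had an FPKM of 27.95 and 25.44 in the sham libraries, 19.98 and 23.61 in the infarcted WT libraries, and 40.16 and 74.85 in the *Card9* KO MI libraries, and was called in neither contrast (-0.28 with adjusted p = 0.416, and 1.30 with adjusted p = 0.0582).

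Genes of the enzymes that prepare collagen lysines for cross-linking, and of their partner proteins, rose with infarction in 6 of 8 cases, with none called lower (median 0.73). The *Plod* and *Colgalt* products hydroxylate the lysines or add sugars to them inside the cell. *Fkbp10*, a chaperone that acts with lysyl hydroxylase 2, had an FPKM of 8.06 and 7.9 in the sham libraries, 27.55 and 31.72 in the infarcted WT libraries, and 50.71 and 47.59 in the *Card9* KO MI libraries. It was the single one called in *Card9* KO MI against WT MI (0.71, adjusted p = 0.038, list median 0.30). *Plod1*, *Plod3* and *Colgalt1* rose by 0.46, 1.35 and 0.91 after infarction, where the call of *Plod1* was lost with upper-quartile scaling (0.25).

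Of 10 genes whose products process lysyl oxidases or hold them at their substrate, 8 were tested. After infarction 6 were called higher and none lower (median 1.51), and 3 were called higher in *Card9* KO MI over WT MI (median 0.46). *Bmp1*, the protease that releases the active enzyme from the *Lox* proprotein, had an FPKM of 12.57 and 13.51 in the sham libraries, 42.53 and 38.97 in the infarcted WT libraries, and 54.8 and 48.16 in the *Card9* KO MI libraries. It rose by 1.57 after infarction (adjusted p = 8.13e-05) and differed by 0.33 between the infarct groups (adjusted p = 0.167). *Postn* and *Fn1*, which encode periostin and fibronectin, matrix proteins known to favour the activation of lysyl oxidase, rose by 3.30 and 3.54 and were 1.57 and 1.02 higher in *Card9* KO MI over WT MI (adjusted p = 0.0161 and 0.0213). *Fmod*, whose product fibromodulin guides cross-linking on collagen, was not called after infarction (-0.32, adjusted p = 0.259, but called lower with quantile normalization at -0.73) and was 2.06 higher in *Card9* KO MI over WT MI (adjusted p = 0.0088). Its FPKM was 0.66 and 0.69 in the sham libraries, 0.34 and 0.35 in the infarcted WT libraries, and 4.45 and 4.8 in the *Card9* KO MI libraries, so it passed the filter through the last group alone and had to differ to be tested.

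Genes of copper supply moved less than the lysyl oxidases, whose median difference in WT MI over WT sham was 2.27. Of 7 genes 6 were tested, and 3 were called higher in WT MI over WT sham (median 0.31), namely the chaperone *Atox1* (0.61), the copper importer *Slc31a1* (0.44) and *Atp7a*, the pump that loads copper into secreted enzymes (0.71). The calls depended on the scaling: 2 were higher and 1 lower with upper-quartile scaling, and 1 higher and 1 lower with quantile normalization. In *Card9* KO MI against WT MI none was called (median 0.038), and 1 was lower at an unadjusted p below 0.05, the plasma copper protein gene *Cp* (-0.66), which was called lower with either other scaling (-0.69 and -0.70). *Atp7a* had an FPKM of 2.05 and 2.29 in the sham libraries, 3.99 and 4.39 in the infarcted WT libraries, and 5.12 and 4.5 in the *Card9* KO MI libraries.

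Transglutaminases, which form a different cross-link, and the other copper amine oxidases were counted beside the family. Of the 3 amine oxidases, *Aoc2* was called lower after infarction (-0.78, adjusted p = 0.0275), *Aoc3* was not called (0.38) and *Aoc1* did not pass the filter, whereas *Aoc3* was 1.17 higher in *Card9* KO MI over WT MI (adjusted p = 0.0213). *Aoc2* had an FPKM of 1.27 and 1.56 in the sham libraries and 0.39 and 0.42 in WT MI. It would not have passed the filter without the sham libraries, so its fall is tied to the filter. Of 5 transglutaminase genes 3 were tested, and all 3 were called higher after infarction (median 1.39), the call of *Tgm1* being lost with both other scalings. *Tgm1* had 0.34 and 0 FPKM in the sham libraries and passed the filter through 1 library of each infarct group, so its rise is tied to the filter. Between the infarct groups none was called (median -0.31), while at an unadjusted p below 0.05 2 were lower in *Card9* KO MI and none higher. *Tgm2* had an FPKM of 103.01 and 93.25 in the sham libraries, 269.38 and 249.51 in the infarcted WT libraries, and 209.44 and 207.42 in the *Card9* KO MI libraries.

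TGF-beta and low oxygen are both known to raise the transcription of lysyl oxidases. Of 11 genes of TGF-beta signalling, 6 were called higher and none lower after infarction (median 0.74), beside 27.7% higher and 9.39% lower of all genes tested. The ligand *Tgfb1* rose by 1.34, the receptor *Tgfbr2* by 1.13 and the target gene *Ccn2* by 2.65. *Smad4* had a mean FPKM of 18.2 in WT sham and 16.8 in WT MI. Between the infarct groups 1 was called, *Tgfb3*, at 1.29 (adjusted p = 0.0115, list median 0.23). Of 13 genes of the hypoxia response, 4 were called higher and 3 lower after infarction (median 0.33), beside the same shares of all genes tested. *Vegfa*, *Egln1* and *Epas1* were lower by 0.69, 0.92 and 0.53. The mean FPKM of *Hif1a* went from 22.4 in WT sham to 56.7 in WT MI, and that of *Slc2a1* from 6.95 to 28.4. The part of either pathway in the levels of the lysyl oxidases was not tested. None of the hypoxia genes was called between the infarct groups (median -0.14), and at an unadjusted p below 0.05 1 was higher and 2 were lower.

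**Figure D5:**
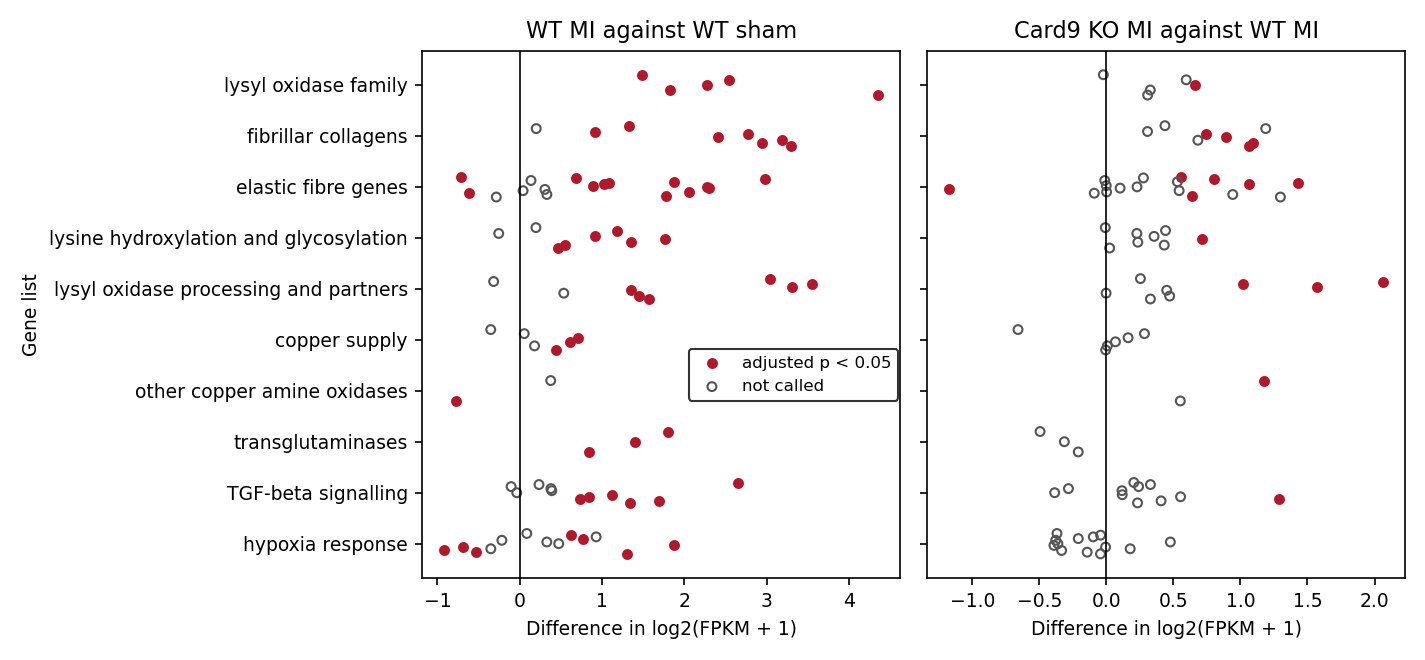
Difference in log2(FPKM + 1) (horizontal) of each tested gene in 10 lists (vertical), for WT MI against WT sham (left) and *Card9* KO MI against WT MI (right). Filled points have an adjusted p below 0.05 in limma and open points do not. The lysyl oxidase genes lie between 1.49 and 4.35 on the left and between -0.023 and 0.66 on the right, and the fibrillar collagens between 0.20 and 3.29 and between 0.31 and 1.19. The 0.20 and the 1.19 both belong to *Col11a1*, which passed the filter through *Card9* KO MI alone, so its place on the right is tied to the filter.

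In bulk tissue, fewer cells of a type and less RNA per cell cannot be told apart, so the markers of the cells that the tissue holds are given beside the family. All 7 markers of activated fibroblasts were called higher in WT MI over WT sham and 4 were called higher in *Card9* KO MI over WT MI, with sums of 62.4 to 76.0, 270 to 275, and 565 to 615 FPKM in the 3 groups. Of these 7, *Cthrc1* and *Fap* were under an FPKM of 1 in both sham libraries and passed the filter through the infarct groups alone, so their rise is tied to it. Of 9 fibroblast markers, 4 were called higher and 1 lower after infarction (2 and 2 with either other scaling), and 2 were called lower in *Card9* KO MI over WT MI, with sums of 877 to 893, 731 to 839, and 640 to 678. The family stood at 4.30 ± 0.283 (SD, n = 2), 28.1 ± 1.51 and 45.4 ± 4.34 FPKM per 100 FPKM of the fibroblast markers, and at 55.7 ± 10.7, 80.7 ± 4.47 and 50.6 ± 0.209 per 100 of the activated fibroblast markers. Against the summed fibroblast markers the family thus rose from group to group. Against the summed activated fibroblast markers it was highest in WT MI. Few genes carried much of these sums. *Gsn* had means of 423, 261 and 176 FPKM in the same order of groups, beside mean fibroblast sums of 885, 785 and 659. *Acta2* had 44.5, 107 and 246 and *Tagln* 13.7, 41.1 and 115, beside mean activated fibroblast sums of 69.2, 273 and 590. The ratios were not computed without these genes.

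All 10 macrophage markers were called higher after infarction and none between the infarct groups, where all 10 differences were above 0 and 6 had an unadjusted p below 0.05 (2 were called higher with quantile normalization). Their sums were 358 to 419, 1430 to 1832, and 2126 to 2928 FPKM. The 6 neutrophil markers tested were called higher after infarction, with sums of 5.40 to 7.64, 92.9 to 212, and 46.7 to 59.8, and of these *Mmp8* was listed at 0.13 and 0 in WT sham. *Mmp8* and *Retnlg* likewise passed the filter through infarct libraries alone. Between the infarct groups none was called, with 2 lower at an unadjusted p below 0.05. Of the 8 cardiomyocyte markers, 6 were called lower after infarction (8 with upper-quartile scaling, and 5 with 1 higher, *Actc1*, with quantile normalization) and none between the infarct groups, where 3 were lower at an unadjusted p below 0.05.

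Vascular and other markers moved less. Of 7 endothelial markers, 1 was called higher and 1 lower after infarction (none and 3 with either other scaling), with sums of 345 to 350, 363 to 367, and 416 to 422, and of 6 smooth muscle and pericyte markers 1 was called higher and 2 lower, with sums of 211 to 232, 169 to 173, and 190 to 206. None of either list was called between the infarct groups, and 2 of each were higher at an unadjusted p below 0.05. The 4 epicardial, 4 adipocyte and 4 erythroid markers summed to at most 8.76, 4.87 and 14.9 FPKM in any library. The part of any of these cell types in the levels of the lysyl oxidases was not tested.

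Each member's nearest genes were those with the smallest mean absolute difference in log2(FPKM + 1), after centring each gene on its own mean over the 6 libraries. *Lox* had few close neighbours: *Hmox1*, which encodes heme oxygenase 1, at 0.147, the metalloprotease gene *Adam8* at 0.166 and the apolipoprotein gene *Apoc2* at 0.202. *Hmox1* had an FPKM of 9.33 and 8.92 in the sham libraries, 228.46 and 258.08 in the infarcted WT libraries, and 344.17 and 223.01 in the *Card9* KO MI libraries. The nearest of *Loxl1* were *Tubb2a* (0.0466), *Nrros* (0.0473) and *Rhog* (0.0522), and those of *Loxl4* were *Eno1* (0.0512), *Cd63* (0.0587) and *Dram1* (0.0602). Near genes on this scale need not change by the same fold, as the added FPKM of 1 shrinks the changes of low genes. *Eno1* had an FPKM of 104.7 and 99.64 in the sham libraries and 325.04 and 279.53 in the infarcted WT libraries. *Loxl4* had 0.4 and 0.18, and 2.83 and 2.4.

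*Loxl2* lay nearest to the mitotic kinase gene *Aurkb* (0.0529), *C1qtnf6* (0.0705) and the Wnt modulator gene *Sfrp2* (0.0824). *Loxl3* lay nearest to the mitotic motor gene *Kif22* (0.0742), *Col5a1* (0.102) and the complement receptor gene *C3ar1* (0.106). *Aurkb* had an FPKM of 0.32 and 0.34 in the sham libraries and 4.55 and 5.59 in the infarcted WT libraries. *Kif22* had 0.45 and 0.32, and 5.57 and 9.02. Both were low, so the added FPKM of 1 shrinks their changes more than those of *Loxl2* and *Loxl3*. Within the family the closest pair was *Loxl2* and *Loxl3* at 0.106, where *Loxl2* ranked 4 among the neighbours of *Loxl3* and *Loxl3* ranked 15 among those of *Loxl2*. *Lox* lay 0.742 to 1.35 from the other members, the largest distances within the family. Among its neighbours, *Loxl3*, *Loxl2*, *Loxl1* and *Loxl4* nevertheless ranked 101, 156, 429 and 928, with 13120 genes tested. All these distances describe the same 6 libraries and carry no test.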

How the data were processed

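Each of the 6 libraries had 1 deposited table of FPKM per NCBI gene number. Per the labels and methods, the authors prepared mRNA libraries from TRIzol extracts with oligo(dT) beads, sequenced them on an Illumina HiSeq and mapped the reads to mm9. The submitters' processing notes name BWA and Bowtie2. The gene annotation and strand setting are not given in the sources used here. The authors deposited FPKM to 2 decimals for genes above 0, and genes not listed were set to 0. As FPKM is relative to all fragments of a library, large changes of abundant genes shift the values of all others.

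Symbols were matched for 17390 of 17441 gene numbers through a table of GRCm38.p6, used for names only. Positions and coding bases come from mm9 and GENCODE M1, and no promoter or protein sequence was used. Depth was read from the steps between low FPKM values. Because only 74.5% to 78.2% of low values came out within 0.15 of a whole fragment, counts were not rebuilt for the tests and no count test was run. Fragments were estimated with the longest protein-coding transcript as the length of a gene (3738 bases for *Loxl4*), and were rounded for the counting interval. The length behind the deposited FPKM is not known. Estimated fragments and intervals from them cover counting error only.

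limma 3.58.1 in R 4.3.3 (lmFit, eBayes with trend) was fitted to log2(FPKM + 1) of the 13120 genes that reached an FPKM of 1 in 2 or more libraries, with the 3 groups in one fit and no covariates. The Benjamini-Hochberg adjustment ran over all genes tested, and an adjusted p below 0.05 was a call. Counts at an unadjusted p below 0.05 are not calls, and the share of all genes tested at that threshold was not computed. The fit was tested on simulated data. The other steps used numpy 2.4.6, pandas 2.3.3 and matplotlib 3.10.9 under Python 3.11.15.

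Named genes are the 5 members, *Card9*, at most the 4 tested genes of largest mean FPKM in each list (with exceptions singled out: *Col5a2*, *Col11a1*, *Eln*, *Fbn2*, *Fmod*, *Bmp1*, *Atp7a*, *Tgfb3*, *Hif1a*, *Slc2a1*, *Cthrc1*, *Fap*, *Retnlg* and *Mmp8*, named after their values were seen), and the 3 nearest profiles of each member. The members and the lists were chosen with earlier results of these data known. *Tgm5*, *Ly6g*, *Lep* and *Ahsp* were listed in none of the 6 libraries, and 1 gene of the TGF-beta list is not reported here. The alternatives changed 1 choice at a time: the added FPKM (0.1 or 5), the filter (none, or a mean FPKM of 5 or more), the scaling (upper-quartile or quantile), the samples (only the groups compared, or each library left out), the spread (no trend in eBayes), a block for the replicate number, and the call rule (also a fold change of 2 or more, or the study's screen, a fold change of 2 with a diverge probability of 0.8 or more, recomputed on group means).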

Additional observations from a re-analysis of the deposited data

How the results depend on the processing

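All 5 members stayed called higher against WT sham in both infarct groups under the alternatives, except that 4 were counted with a mean FPKM of at least 5, where *Loxl4* was not tested, and with the study's screen. Wherever the main filter was kept, *Loxl4* was tested only through its infarct libraries. In *Card9* KO MI against WT MI, the count of 1 (*Loxl2*) became 0 with an added FPKM of 0.1, no filter, upper-quartile scaling, only the groups compared, eBayes without trend, a fold change of at least 2 and the screen, and 0 to 0 with each library left out. It stayed at 1 with an added FPKM of 5, a mean FPKM of at least 5 and quantile normalization. The adjusted p of *Loxl2* ran from 0.0352 to 0.289 and its difference from 0.54 to 0.78. The difference of *Loxl4* there, -0.023, ran from -0.12 to 0.071 as single libraries were left out and turned sign when WT MI replicate 1 (0.063) or the second *Card9* KO MI library (0.071) was missing. Of the other single-gene values, 208 kept their direction and side of the threshold, and 12, all of *Loxl2*, lost the call. The causes were not tested.

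Same-numbered libraries did not deviate together over the genes tested (r of 0.0024, -0.0083 and 0.020 between groups). This shows no broad shared shift, but with 2 libraries a group it cannot exclude that they were handled in pairs. With the replicate number as a block the count was 5, 0 and 5 in the 3 comparisons in the order above (WT MI against WT sham, *Card9* KO MI against WT MI, *Card9* KO MI against WT sham).

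Over all genes tested, calls in *Card9* KO MI against WT MI went from 107 higher and 77 lower to 7 and 5 without the filter, 47 and 33 with an added FPKM of 0.1, 200 and 112 with 5, 40 and 18 without trend and 45 and 26 with the block, and leaving out 1 library left 3 to 63 higher. Scaling moved the split of calls: higher calls made up 74.7% in WT MI against WT sham on the deposited values, 54.7% after upper-quartile scaling and 47.3% after quantile normalization, and 70.9%, 52.8% and 44.4% in *Card9* KO MI against WT sham. Depth limits *Loxl4* most, whose sham libraries hold about 2.03 and 4.69 fragments.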
